A study of Bos taurus with 46 samples.

Results

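Maternal leukocytes were compared on gestation day (D) 55 between heifers that carried embryos produced in vitro (IVP) and were later found to carry either fetuses of normal weight (IVP-Normal) or fetuses with large offspring syndrome (IVP-LOS). Members were the D55 libraries of the label groups ARTnormal and ARTLOS, which gave 15 of the 46 libraries of the series, from 6 IVP-Normal and 9 IVP-LOS heifers. All heifers were Angus crossbreds in the second year of life. Each IVP recipient had received hybrid embryos from B. t. taurus oocytes and semen of a Brahman (B. t. indicus) bull, grown in serum-supplemented culture, and both groups held singleton and twin pregnancies according to the study. A heifer was placed in IVP-LOS when a fetus collected on D105 weighed at or above the percentile cut of artificial insemination (AI) fetuses of the same sex, so the grouping was not known when the D55 blood was drawn. The 8 AI heifers sampled on D55 are given for reference.

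Large offspring syndrome is a fetal overgrowth condition of ruminants that follows assisted reproduction and resembles Beckwith-Wiedemann syndrome of humans. Maternal leukocytes circulate through the pregnant uterus and meet fetal antigens and placental hormones, so their transcripts are candidates for a marker that could be read early in pregnancy. The question asked here was whether any leukocyte gene, or any group of genes with a shared function, separated the later IVP-LOS dams on D55.

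The 15 libraries held between 21440044 and 24502012 reads on genes (median 23365162), and between 23.2% and 30.6% of the reads that were either counted, ambiguous or outside annotated genes fell outside them. All 15 belonged to the library set named New. PTPRC, the common leukocyte antigen, ranged from 1829 to 2443 CPM, which are counts scaled to library size, and genes of B cells, T cells, monocytes, natural killer cells and platelets were all read. The red cell membrane gene SLC4A1 was at or below 0.0443 CPM, and the beta globin HBB ranged from 19.6 to 231 CPM. ALAS2, another red cell gene, ranged from 2.74 to 71.9 CPM. The neutrophil genes CXCR2 and S100A8 ranged from 3.51 to 85.1 CPM and from 34.9 to 162 CPM. Pearson's r of log2(CPM + 1) between libraries was between 0.960 and 0.988, and no pair of libraries was identical. CPM values below are scaled over the 23 D55 libraries together by the trimmed mean of M values (TMM), so that a level (in CPM) is comparable between heifers and not between genes of different length. Fold changes are log2 of IVP-LOS over IVP-Normal.

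No gene passed the test on D55. With edgeR's quasi-likelihood test and a Benjamini-Hochberg adjusted p of at most 0.05, 0 of 15452 tested genes were called (0%). At an unadjusted p under 0.05, 455 genes had a higher estimate in IVP-LOS (2.94% of those tested) and 347 a lower one (2.25%). Together these were 802 genes, or 5.19%. These shares are of the fit with all 15 libraries. They change when heifers are left out, and no share is given beside the list counts of such fits. The median log2 fold change over all tested genes was 0.00, and 50.9% of genes had an estimate above 0. The groups did not overlap in CPM for 4 genes (0.0259%), a count that was not tested against reassignment of the heifers.

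The intervals show what size of difference the 15 libraries could carry. Across genes the standard error had a median of 0.14 (log2), which gave a median 95% interval of 0.30 to either side, or 1.23-fold. For 86.0% of the tested genes the whole interval lay within a 2-fold difference, and for 62.7% it lay within 1.5-fold. For those genes a D55 difference of 2-fold or 1.5-fold between later IVP-LOS and IVP-Normal dams lay outside the interval. For the remaining genes the interval reached past those sizes. The libraries are of separate heifers, so the spread is one between animals.

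Distances between whole transcriptomes were compared next. The mean Euclidean distance of log2(CPM + 1) over 23985 genes was 61.8 ± 8.34 (SD, 54 pairs) between heifers of different groups and 61.1 ± 7.08 (SD, 51 pairs) between heifers of the same group. Their difference of 0.77 was not larger than under reassignment of the heifers (exact permutation test over 5005 assignments, one-sided p = 0.245, two-sided p = 0.562). It took the value -0.60 without IVP-Normal heifer 519. The nearest library to a heifer belonged to its own group for 6 of the 9 IVP-LOS heifers and for 2 of the 6 IVP-Normal heifers. Heifer 519 of IVP-Normal lay farthest from the rest, with a mean distance of 72.4, against 55.7 to 66.1 for the other 14 heifers. Together with heifer 664 of IVP-LOS it also lay at 1 end of the first principal component, which held 23.1% of the variance.

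**Figure D1:**
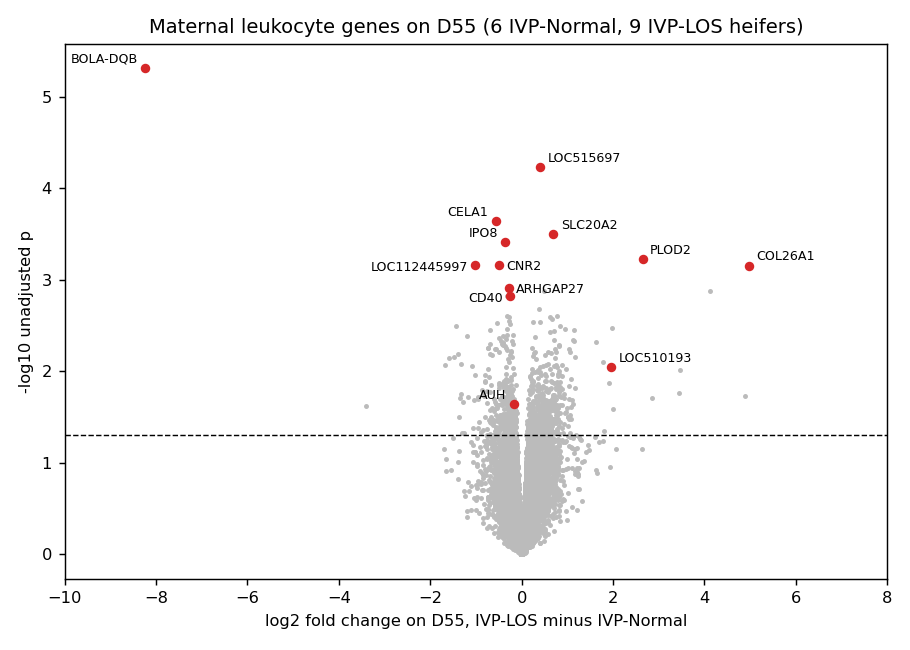
Each point is 1 of 15452 genes, with the log2 fold change (IVP-LOS minus IVP-Normal, D55) on the horizontal axis and -log10 of the unadjusted p on the vertical axis; the dashed line marks the unadjusted threshold of 0.05 in edgeR's quasi-likelihood test. Red points are the 10 genes with the smallest p and the genes whose groups did not overlap. BOLA-DQB, at -8.23, stands apart from all other genes, and no point passed the adjusted threshold.

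The gene nearest to the threshold was BOLA-DQB, a beta chain of the bovine MHC class II DQ molecule. Class II molecules are pairs of an alpha and a beta chain that present peptides to CD4 T cells; the cattle DQ genes vary between haplotypes in sequence and in number of copies, so an animal may lack a given copy. IVP-Normal heifers 628, 560, 519 and 688 read BOLA-DQB at 546.6, 491, 379.8 and 375 CPM, in that order. Heifers 633 and 669 of the same group read it at 0.951 and 0.0923 CPM. All 9 IVP-LOS heifers were low, from 0.0419 CPM in heifer 604 to 4.05 CPM in heifer 656, with a median of 0.651 CPM. Thus 4 of 6 IVP-Normal heifers and 0 of 9 IVP-LOS heifers were at 100 CPM or more, and the other 2 IVP-Normal heifers lay within the IVP-LOS range.

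The log2 fold change of BOLA-DQB was -8.23 ± 1.23 (SE), with a 95% interval of -10.84 to -5.63 and an adjusted p of 0.0752 by edgeR's quasi-likelihood test. By edgeR's likelihood ratio test, which called 1 of 15452 genes (0.00647%), its adjusted p was 4.63e-06. By DESeq2's likelihood ratio test, which called 4 of 23956 genes (0.0167%), it was 0.000263. Left out in turn, IVP-Normal heifers 669 and 633, both low, each gave a quasi-likelihood call with adjusted p of 0.00441 and 0.00908. Leaving out any other heifer gave an adjusted p between 0.0788 and 0.275 in edgeR's quasi-likelihood test. That p was 0.815 with all 23 D55 libraries in the fit, 0.109 with robust dispersions, 0.256 without heifers 604 and 664, and 0.0474 with no expression filter; the estimate was between -8.96 and -7.98 in all of these fits.

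The division of the heifers recurred on D105. On that day the same 4 IVP-Normal heifers were between 283.6 and 395.7 CPM, heifers 633 and 669 were at 0.839 and 0 CPM, and the IVP-LOS heifers were at or below 2.76 CPM. The D105 log2 fold change was -8.32 ± 1.32 (SE). These libraries came from the set named New for IVP-Normal and from the set named BACKUP for IVP-LOS, so on D105 set and group cannot be told apart; on D55 all came from 1 set. Among the 8 AI heifers on D55, heifer 546 was at 365.7 CPM, heifer 517 at 115.9 CPM, and the other 6 were at or below 0.387 CPM. Heifer 517 was at 0 CPM on D105, and of 63 genes that were on (10 CPM or more) in some heifers and off (0.5 CPM or less) in others on D105, 4 were on in its D55 library and off in its D105 library. AI heifer 647 had 1 such gene, and none of the 15 IVP heifers had any. In the other direction, off on D55 and on on D105, IVP-LOS heifer 637 had 8 genes and AI heifer 590 had 7. The AI libraries came from New on D55 and from BACKUP on D105. Whether the D55 and D105 libraries of heifer 517 are of the same animal was not tested. Without heifer 517, 1 of 7 AI heifers read BOLA-DQB at 100 CPM or more on D55.

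The neighbouring class II genes followed the heifer in part. In the RefSeq table of assembly ARS-UCD2.0 the genes BOLA-DQA2, BOLA-DQB, BOLA-DQA5 and BOLA-DQB1 (BLA-DQB in the counts) lie next to each other on chromosome 23. BOLA-DQA5, a DQ alpha chain, was read at 411.99, 360.0, 252 and 237 CPM by heifers 560, 688, 628 and 519, the same 4 IVP-Normal heifers that read BOLA-DQB. The other 2 IVP-Normal heifers were at or below 0.432 CPM. In IVP-LOS it ranged from 0.0456 CPM through a median of 0.93 CPM to 136 CPM in heifer 664, the only one of the 9 above 16.2 CPM. Its log2 fold change was -3.40 ± 1.36 (SE), at unadjusted p = 0.0236 and adjusted p = 0.839 by edgeR's quasi-likelihood test. Among the AI heifers on D55, 3 of 8 read BOLA-DQA5 at 100 CPM or more.

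BOLA-DRB3, the main DR beta chain, also divided the heifers, but only in part as BOLA-DQB did. BOLA-DRB3 was between 1354 and 1911 CPM in 5 of 6 IVP-Normal heifers and at 629 CPM in heifer 669. In 8 of 9 IVP-LOS heifers it was between 635 and 865 CPM, and heifer 664 was at 1896 CPM. The log2 fold change was -0.61 ± 0.24 (SE), with unadjusted p = 0.0199 and adjusted p = 0.839 by edgeR's quasi-likelihood test. The groups overlapped through heifer 669 on one side and heifer 664 on the other. Heifers 633 and 664 were low for BOLA-DQB and high for BOLA-DRB3, as was AI heifer 648, at 1450 CPM for BOLA-DRB3. AI heifer 517, higher for BOLA-DQB, was at 831 CPM for BOLA-DRB3. BOLA-DRB2, which lies near BOLA-DRB3 but not next to it and was named here after its values were seen, had a log2 fold change of -0.38 ± 0.25 (SE). On D105, BOLA-DRB3 ranged from 606 to 1282 CPM in IVP-Normal and from 462 to 1997 CPM in IVP-LOS.

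BOLA-DQA2 and BLA-DQB also varied widely between heifers. BOLA-DQA2, the other DQ alpha chain, was at or below 0.179 CPM in IVP-Normal heifer 669 and in IVP-LOS heifers 602, 604 and 663, and reached 192 CPM in IVP-Normal and 200.6 CPM in IVP-LOS. Its log2 fold change was -0.15 ± 1.24 (SE). BLA-DQB, the other DQ beta chain, was below every IVP-Normal heifer in 4 of 9 IVP-LOS heifers: 616, 557, 656 and 664 read it at 48.1, 50.2, 163 and 251 CPM, while the lowest IVP-Normal value was 488 CPM. The group medians were 884 CPM in IVP-Normal and 670.1 CPM in IVP-LOS. The highest values were 2009 CPM in IVP-Normal and 1719 CPM in IVP-LOS, and the log2 fold change was -0.57 ± 0.65 (SE).

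With the reads of both DQ beta genes added, the IVP-Normal heifers ranged from 701.5 through a median of 1023 to 2556 CPM, and the IVP-LOS heifers from 49.9 through 670.3 to 1719 CPM. The 2 groups overlapped, and 5 of the 9 IVP-LOS heifers (557, 616, 637, 656 and 664) were below every IVP-Normal heifer. These genes are close copies of each other, and reads are counted by their match to a reference that carries 1 version of each, so the count of a single DQ gene in a heifer with other alleles is uncertain.

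**Figure D2:**
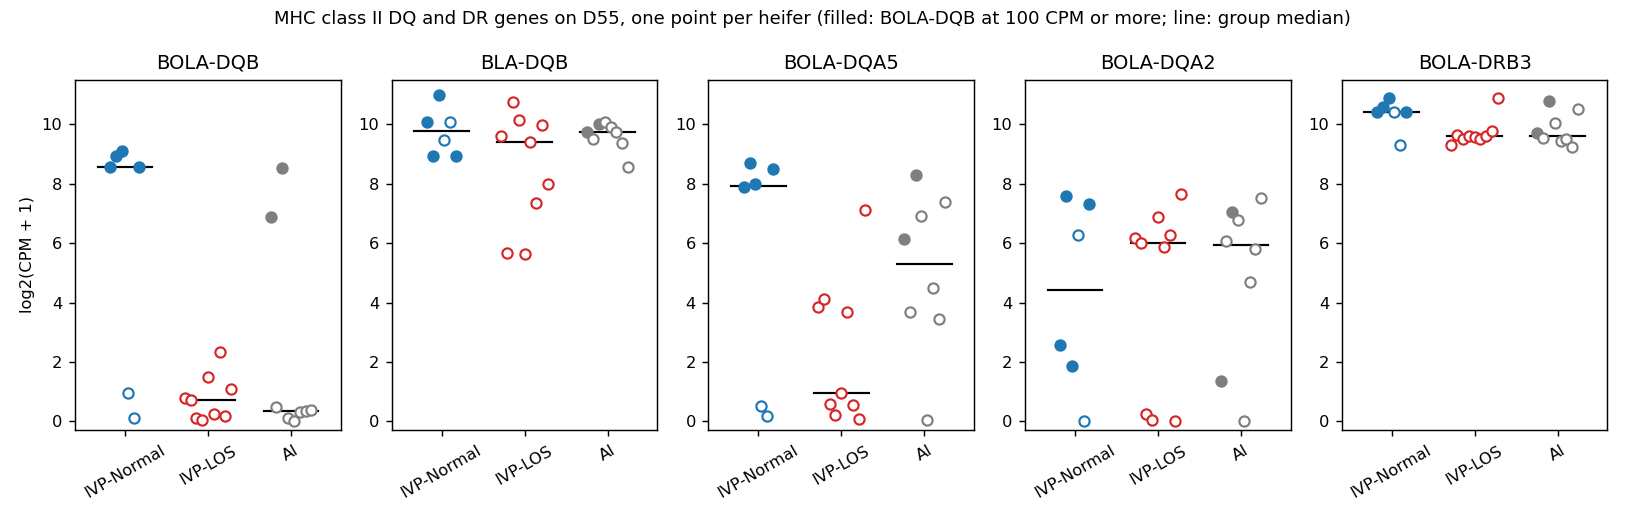
Each panel plots log2(CPM + 1) of 1 class II gene on D55 with 1 point per heifer of IVP-Normal (6), IVP-LOS (9) and AI (8); filled points are heifers with BOLA-DQB at 100 CPM or more, and lines are group medians. The 4 filled IVP-Normal heifers are also the 4 highest IVP-Normal heifers for BOLA-DQA5, while BLA-DQB and BOLA-DQA2 do not follow the filling.

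The remaining class II genes had small estimates. Of the 17 list genes that were tested, 16 had an estimate below 0 and 5 were below 0 at unadjusted p under 0.05, beside 2.25% of all genes: BOLA-DQB, BOLA-DQA5, BOLA-DRB3, and both chains of the DO molecule, BOLA-DOA (-0.24 ± 0.09, SE) and BOLA-DOB (-0.44 ± 0.19, SE). DO is a modulator of peptide loading found mainly in B cells. The class II median was -0.17, beside 0.00 over all tested genes. The invariant chain CD74 had a log2 fold change of -0.17 ± 0.11 (SE), the DR alpha chain BOLA-DRA of -0.16 ± 0.10, and the class II transactivator CIITA of -0.30 ± 0.15. BOLA-DMA and BOLA-DMB, which load peptides, were at -0.13 ± 0.09 and -0.03 ± 0.11. BOLA-DYB and DSB, the beta chains of the DY and DS type, were at -0.41 ± 0.27 and -0.01 ± 0.32. The 3 subunits of the RFX factor that binds class II promoters, RFX5, RFXAP and RFXANK, had estimates of -0.09, 0.19 and -0.09. None of these reached an adjusted p of 0.05. The count of 5 was 3 without IVP-Normal heifer 628 and 9 without IVP-LOS heifer 663.

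B cell genes had lower estimates in IVP-LOS throughout the list. All 14 listed genes were tested, all 14 estimates were below 0, and 7 were at unadjusted p under 0.05, beside 2.25% of all genes; none was called. The list median was -0.34. CD40, the receptor through which T cells help B cells, was one of the 4 genes whose groups did not overlap: it ranged from 92.0 through 95.02 to 113.1 CPM in IVP-Normal and from 73.6 through 85.9 to 89.1 CPM in IVP-LOS. Its log2 fold change was -0.25 ± 0.07 (SE), with unadjusted p = 0.0015 and adjusted p = 0.839 by edgeR's quasi-likelihood test. The AI heifers spanned both groups, from 60.4 to 123.8 CPM, and on D105 the IVP-LOS heifers (53.2 to 97.0 CPM) spanned the IVP-Normal ones (78.5 to 85.9 CPM).

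The B cell genes at that p also included the complement receptor CR2 (-0.34 ± 0.12, SE), the lineage factors PAX5 (-0.42 ± 0.16) and EBF1 (-0.39 ± 0.18), the inhibitory lectin CD22 (-0.40 ± 0.17) and the scaffold BANK1 (-0.42 ± 0.16). PAX5 ranged from 329 through 553 to 722 CPM in IVP-Normal and from 273 through 390.5 to 552 CPM in IVP-LOS. MS4A1 (CD20) and CD79A, a chain of the B cell receptor, had estimates of -0.34 ± 0.16 and -0.31 ± 0.15. Plasma cell genes did not share the direction, with 5 of 8 tested genes above 0 and a median of 0.19.

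The mean log2(CPM + 1) of the B cell list per heifer was between 8.09 and 8.54 in IVP-Normal (median 8.29) and between 7.57 and 8.33 in IVP-LOS (median 7.96). The ranges overlapped, and 6 of the 9 IVP-LOS heifers were below every IVP-Normal heifer. The 8 AI heifers, which carried no IVP pregnancy, were between 7.62 and 8.28 (median 7.98), close to IVP-LOS and with a median under the lowest IVP-Normal value. Heifer 519 was the highest of IVP-Normal and heifer 664 the highest of IVP-LOS. The median was -0.28 to -0.42 with each heifer left out in turn, and the number of list genes at unadjusted p under 0.05 was 3 without heifer 519, 11 without heifer 669, and 12 without heifer 656 or heifer 664. Without both heifers 519 and 664 it was 9, with a median of -0.35. In bulk RNA, fewer cells of a type and less RNA per cell cannot be told apart.

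Monocyte genes had higher estimates in IVP-LOS. All 12 tested genes of the 14 listed were above 0, and 5 were at unadjusted p under 0.05, beside 2.94% of all genes; none was called, and the median was 0.48. The 5 were the chemokine receptor CCR2 (0.64 ± 0.24, SE), the haemoglobin scavenger receptor CD163 (0.75 ± 0.31), the mannose receptor MRC1 (1.03 ± 0.44), the lectin CLEC7A (0.77 ± 0.36) and the protease CTSS (0.39 ± 0.18). CCR2 ranged from 36.0 through 56.9 to 67.8 CPM in IVP-Normal and from 49.99 through 82.5 to 153 CPM in IVP-LOS. CD14, the lipopolysaccharide co-receptor, ranged from 32.5 through 39.9 to 50.7 CPM in IVP-Normal and from 23.9 through 48.9 to 108.9 CPM in IVP-LOS.

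The list level per heifer was between 4.89 and 5.72 in IVP-Normal and between 5.18 and 6.95 in IVP-LOS, and 5 of 9 IVP-LOS heifers were above every IVP-Normal heifer. The AI heifers were between 5.19 and 6.77, and the medians were 5.50 in IVP-Normal, 5.76 in IVP-LOS and 5.82 in AI. Heifer 519 was the lowest of IVP-Normal and heifer 637 the highest of IVP-LOS. The number of genes at that p was 1 without heifer 519 or heifer 637, 2 without heifer 560, 628 or 669, and 3 without heifer 512, 557, 633 or 656, and the median was between 0.28 and 0.56 with any 1 heifer left out. Heifers 604 and 664 had been singled out for the heaviest fetuses. Without that pair, 9 of the 12 genes were at that p, a count with no share over all genes of the same fit beside it.

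T cell and cytotoxic genes also lay on the higher side in IVP-LOS. Of 18 T cell genes, 17 had an estimate above 0 (median 0.31). At unadjusted p under 0.05, 4 were higher, beside 2.94% of all genes. Among them were CD8A of cytotoxic T cells (0.57 ± 0.24, SE), the receptor CD6 (0.42 ± 0.19) and TRAT1 (0.38 ± 0.17), an adaptor of the T cell receptor. The CD3 chains CD3D, CD3E and CD3G had estimates of 0.30, 0.25 and 0.30, and CD4 of 0.27, with no p under 0.05. That count was 0 without heifer 519, 688, 633, 557 or 512, 1 without heifer 604, 2 without heifer 628 or 656, 6 without heifer 669, 7 without heifer 664 and 13 without heifer 560. The median T cell level was 6.64 in IVP-Normal, 6.88 in IVP-LOS and 6.89 in AI, so AI lay with IVP-LOS here too. Of 20 natural killer and cytotoxic genes, 18 were above 0 (median 0.42). At that p 1 was higher, beside 2.94% of all genes, or 1 to 4 with 1 heifer left out. It was granzyme A (GZMA), which ranged from 9.29 through 17.2 to 31.2 CPM in IVP-Normal and from 18.4 through 32.2 to 47.5 CPM in IVP-LOS, with a log2 fold change of 0.81 ± 0.25 (SE). GZMB had the largest estimate of that list, 1.297, at unadjusted p = 0.0568.

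The same heifers stood at the ends of several lists. Heifer 519 had the highest B cell level of IVP-Normal and the lowest levels of the monocyte, T cell, chemokine and interleukin-1 lists. Heifer 664 was the highest of IVP-LOS for the B cell list and the lowest for the T cell list. Whether these differences in list level have a part in the class II values was not tested.

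**Figure D3:**
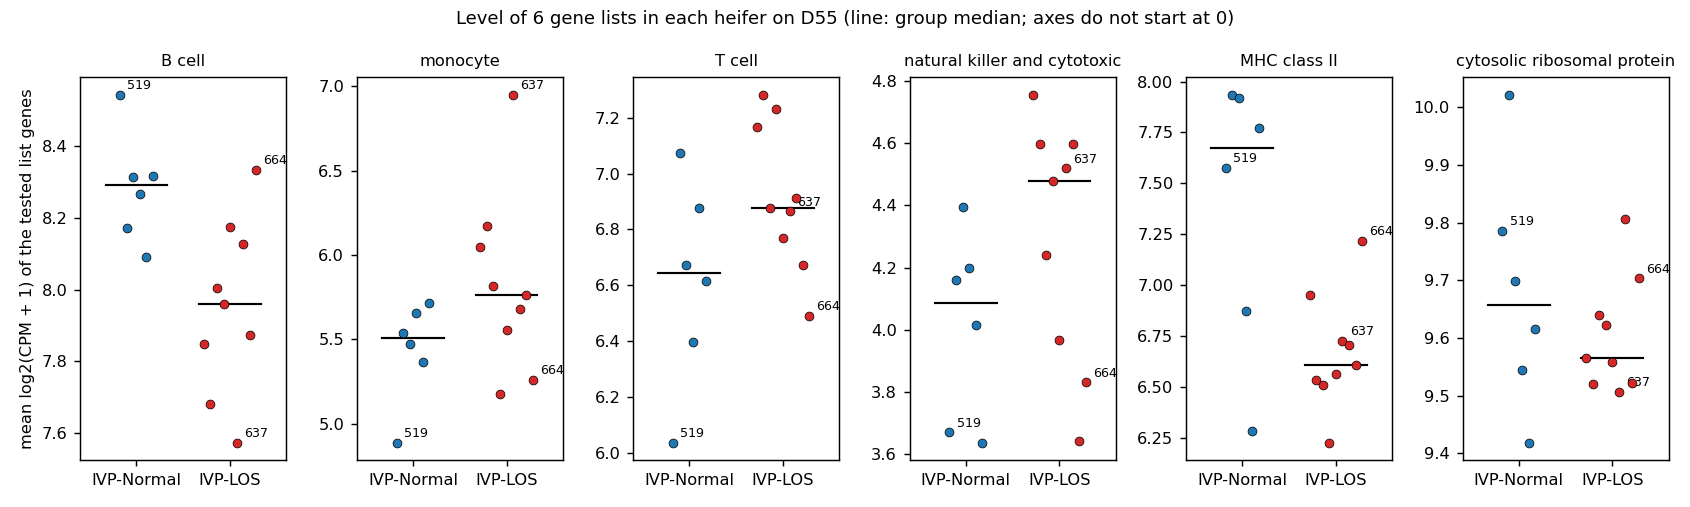
Each point is the mean log2(CPM + 1) of the tested genes of a list in 1 heifer on D55, with IVP-Normal in blue and IVP-LOS in red, lines at group medians and heifers 519, 637 and 664 labelled. The B cell panel has 6 IVP-LOS heifers that lie below all IVP-Normal heifers, and the groups overlap in every panel.

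Genes of innate sensing and inflammation were mixed. At unadjusted p under 0.05, 4 of 19 genes of the Toll-like receptor and inflammasome list were higher and 1 lower. The shares over all genes were 2.94% and 2.25%, and the list median was 0.10. The higher genes were the RNA sensor TLR3 (0.64 ± 0.21, SE), the inflammasome sensors NLRC4 and NLRP3 (0.67 and 0.46), and NOD2 (0.51). The lower one was TLR10 (-0.35), a receptor of B cells. With 1 heifer left out, the count of 4 was 1 without heifer 560, 633, 663 or 637, 2 without heifer 616 or 512, and 6 at most, and the count of 1 was 2 without heifer 519, 633, 616 or 664. The interleukin-1 and interleukin-18 list had all 9 tested genes above 0 (median 0.42). At that p 2 were higher, beside 2.94% of all genes: IL1RAP (0.71 ± 0.22, SE) and IL18R1 (0.61 ± 0.26). The count was 1 gene without heifer 519, 688, 560, 557, 656 or 512, and 3 at most. IL1RAP, the shared chain of interleukin-1 family receptors, ranged from 3.60 to 7.27 CPM in IVP-Normal and from 5.36 to 14.97 CPM in IVP-LOS. Neutrophil surface and granule genes had medians of 0.41 and 0.40 over 8 and 7 tested genes, with none at that p. The neutrophil surface level per heifer had a lower median in IVP-LOS (3.32) than in IVP-Normal (3.78), with 5 of 8 genes above 0. That level reached 5.64 in IVP-LOS heifer 616. For granule genes the level medians were 4.76 in IVP-LOS and 4.42 in IVP-Normal.

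The chemokine list had 3 of 20 genes higher at that p: CCL5, CXCR3 and CCR8, with estimates of 0.63, 0.62 and 0.42, beside 2.94% of all genes. It was 0 without heifer 519 or 633, 1 without heifer 688, 557 or 656, and 4 at most. The prostaglandin and leukotriene list had 5 of 18 higher at that p, beside the same 2.94%. They were the phospholipase PLA2G4A, which releases arachidonic acid (0.63), the leukotriene enzyme LTA4H (0.20), and the receptors CYSLTR2 (0.78), PTGER2 (0.57) and PTGDR (0.52). PLA2G4A ranged from 2.65 through 5.07 to 5.65 CPM in IVP-Normal and from 5.02 through 7.17 to 12.9 CPM in IVP-LOS. The prostaglandin count was 3 without heifer 519 or 637. The medians of these lists were 0.30 and 0.26. In the regulation and tolerance list, 3 of 16 tested genes were higher at that p, beside the same 2.94%, with a median of 0.22. They were FOXP3 of regulatory T cells (0.44), IDO1, the tryptophan-degrading enzyme (0.63), and NT5E, which makes adenosine (0.58). That count was 1 without heifer 519 or 688, 2 without heifer 628, 604 or 637, and 5 without heifer 664. On D105 the estimate of NT5E was -0.27.

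Interferon-stimulated genes, which answer the conceptus signal interferon tau in early pregnancy of cattle, were mixed in direction. Of 35 tested genes, 23 were above 0 and 12 below, and the median was 0.09. At unadjusted p under 0.05, 2 were higher, beside 2.94% of all genes: RSAD2 (0.54 ± 0.25, SE) and IFIT5 (0.49 ± 0.23). That count was 0 to 3 with 1 heifer left out, and 0 without heifer 519, 560, 557, 663, 604 or 637. ISG15, MX1, MX2 and OAS2 had estimates of 0.41, -0.24, 0.23 and -0.38. MHC class I and peptide loading genes had 13 of 16 estimates above 0, a median of 0.08 and none at that p. Their level per heifer was above every IVP-Normal heifer in 6 of 9 IVP-LOS heifers, with ranges of 7.93 to 8.11 in IVP-Normal, 8.004 to 8.32 in IVP-LOS and 7.94 to 8.20 in AI; beta-2-microglobulin (B2M) was at 0.25 ± 0.14 (SE).

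Gene groups tied to growth, imprinting and steroid response are given next. None of the 15 tested imprinted genes was at unadjusted p under 0.05, and their median was 0.07; IGF2R, the receptor that clears the growth factor IGF2, was at 0.13, CDKN1C, a cell cycle inhibitor, at 0.52, and PLAGL1 at -0.01. None of 16 DNA methylation genes was at that p (median -0.03), with the methyltransferase DNMT3B at -0.39 ± 0.19 (SE) and DNMT1 at 0.12. In the pregnancy and growth hormone receptor list, 1 of 17 tested genes was higher, IGF1R (0.66 ± 0.31, SE), beside 2.94% of all genes. In that list 2 were lower, beside 2.25%: the oestrogen receptor ESR2 (-0.71 ± 0.25) and the thyroid hormone receptor THRA (-0.33 ± 0.15). With 1 heifer left out, 0 to 2 were higher and 1 to 2 lower. ESR2 was read at low levels, with 11 to 20 reads in IVP-Normal and 5 to 12 reads in IVP-LOS. Of 12 glucocorticoid response genes, 1 was higher at that p, ANXA1 (0.46 ± 0.20, SE), beside 2.94% of all genes, and the median was -0.02. Cell cycle genes had 27 of 28 estimates above 0 (median 0.28) with none at that p, and 0 to 6 with 1 heifer left out.

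Housekeeping groups were close to even. The 75 respiratory chain genes had a median of 0.00, and the 18 common reference genes a median of -0.02, with none at unadjusted p under 0.05 in either. Of 77 cytosolic ribosomal protein genes, 72 estimates were below 0, but the median was only -0.08. At that p 2 were lower, beside 2.25% of all genes, a count of 0 to 12 with 1 heifer left out. Of the other lists, platelet genes had a median of 0.16 with F13A1 higher at that p (0.72 ± 0.23, SE), and red cell, eosinophil, basophil and mast cell, gamma-delta T cell, and selectin and integrin adhesion genes had medians of 0.13, 0.17, 0.29 and 0.21, with 1 adhesion gene at that p. Heat shock genes had a median of -0.06 with 1 gene higher at that p. Immediate early genes had one of -0.03 with 1 higher and 1 lower. Lymphocyte cytokine and signal suppressor genes had one of 0.04, with IL2 (0.80 ± 0.33, SE) higher at that p. IL2 was read at low levels, with 3 to 12 reads in IVP-Normal and 8 to 25 reads in IVP-LOS. Each of these lists, from the platelet genes on, held 5 to 21 tested genes. At that p each had at most 1 gene higher and 1 lower, beside 2.94% and 2.25% of all genes. Over the 31 lists, 595 distinct genes were tested, and 36 were higher and 18 lower at that p, or 9.08% together, beside 5.19% of all tested genes; genes of 1 list are not independent of each other.

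**Figure D4:**
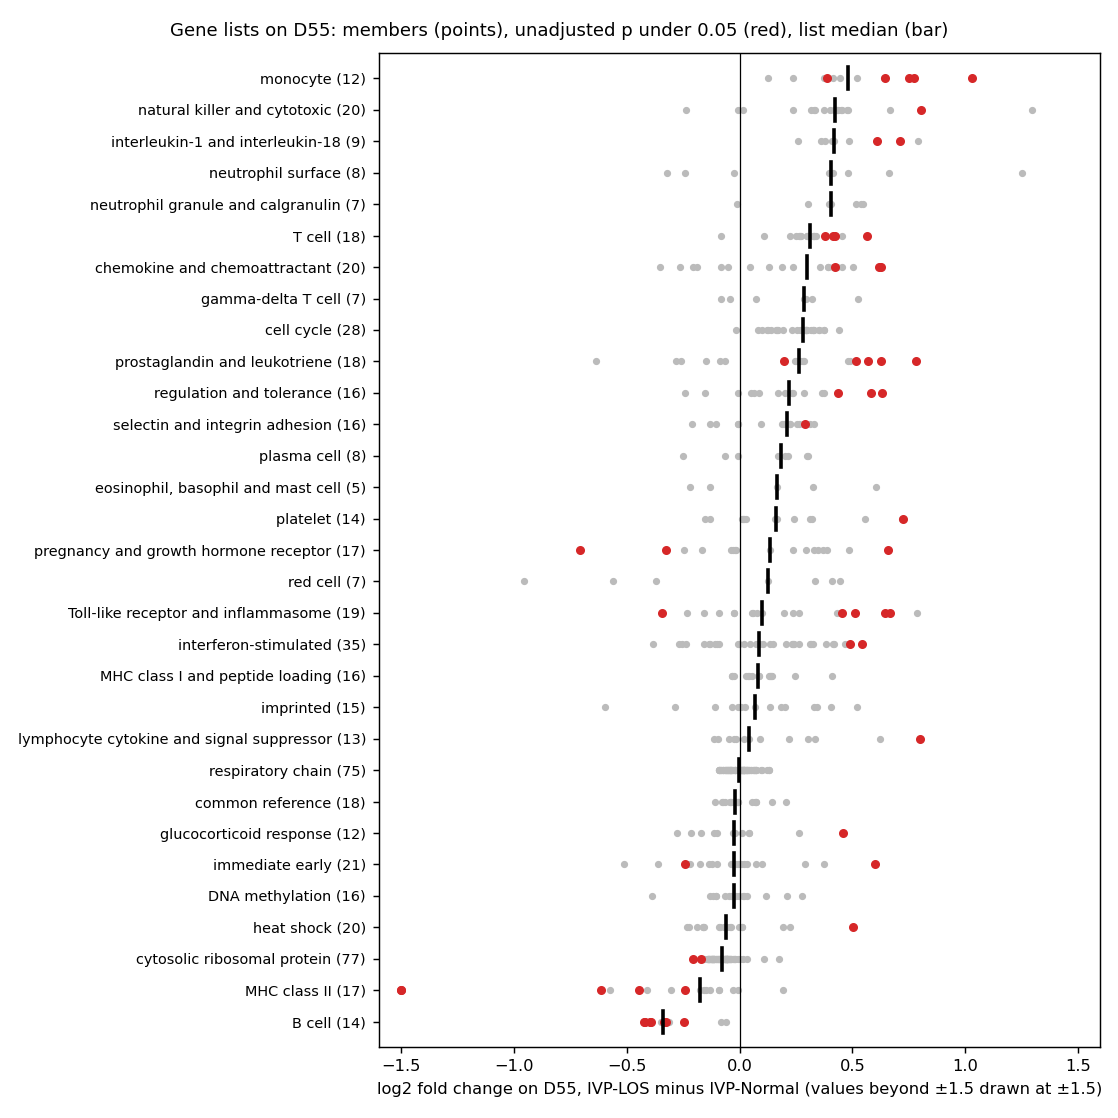
Each row is a gene list with its number of tested genes, each point the log2 fold change of a member (IVP-LOS minus IVP-Normal, D55), red where the unadjusted p was under 0.05, and the bar the list median. Medians run from -0.34 for B cell genes to 0.48 for monocyte genes; values beyond 1.5 are drawn at the edge, BOLA-DQB and BOLA-DQA5 among them.

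Away from the lists, LOC515697, a protein-coding gene with no assigned name, had the smallest p after BOLA-DQB. It ranged from 44.2 through 53.3 to 54.8 CPM in IVP-Normal and from 54.7 through 69.0 to 75.1 CPM in IVP-LOS, so that 8 of 9 IVP-LOS heifers were above every IVP-Normal heifer and heifer 664 was level with the highest. The log2 fold change was 0.40 ± 0.07 (SE), with a 95% interval of 0.24 to 0.56 and an adjusted p of 0.456 by edgeR's quasi-likelihood test and 0.0056 by DESeq2. The AI heifers, at 59.1 to 76.8 CPM, lay with IVP-LOS and above every IVP-Normal heifer. On D105 the estimate was 0.41 ± 0.14 (SE), with overlapping groups of 35.1 to 54.3 CPM and 39.9 to 74.5 CPM. The overlap came from IVP-LOS heifers 664 (39.9 CPM) and 604 (51.1 CPM), and the other IVP-LOS heifers were above every IVP-Normal heifer. The D105 libraries of heifers 664 and 604 had 36.1% and 38.0% of reads outside genes, beside 23.2% to 30.6% in the D55 IVP libraries.

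LOC510193, a protein-coding gene on the same chromosome, was the gene with separated groups that was higher in IVP-LOS. It was between 0.753 and 1.90 CPM in IVP-Normal and between 1.96 and 30.1 CPM in IVP-LOS, where heifer 637 alone was above 4.27 CPM. Its log2 fold change of 1.96 ± 0.66 (SE) therefore rested in size on heifer 637, and DESeq2 gave 0.83. AI heifer 533 was at 35.6 CPM, and heifers 637 and 533 were also high on D105, at 24.9 and 35.03 CPM.

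CELA1, a pancreatic-type elastase, was lower in every IVP-LOS heifer, at 4.88 through 5.41 to 6.65 CPM, than in any IVP-Normal heifer, at 6.96 through 7.84 to 11.47 CPM. The log2 fold change was -0.57 ± 0.12 (SE), with an adjusted p of 0.839 by edgeR's quasi-likelihood test and 0.0141 by DESeq2. The AI heifers overlapped both groups, from 3.20 to 10.6 CPM. The D105 estimate was -0.11 ± 0.24 (SE), and the groups overlapped. AUH, an RNA-binding enzyme of leucine breakdown, was separated narrowly: 15.51 CPM was the lowest value of IVP-Normal and 15.53 CPM the highest of IVP-LOS on the scale of the 23 D55 libraries, where the groups touch, while they did not overlap on the scale of the 15 libraries of the fit. Its log2 fold change was -0.17 ± 0.07 (SE).

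Among the other genes with the smallest p, SLC20A2, a phosphate transporter, ranged from 20.4 through 24.9 to 27.1 CPM in IVP-Normal and from 24.5 through 41.9 to 50.6 CPM in IVP-LOS, with a log2 fold change of 0.70 ± 0.15 (SE) on D55. Its D105 estimate was 0.97 ± 0.20 (SE), with an adjusted p of 0.868 by edgeR's quasi-likelihood test. For this and every other D105 estimate, library set and group cannot be told apart. IPO8, a nuclear import receptor, was at 105 through 123.6 to 149 CPM in IVP-Normal and at 86.5 through 94.0 to 108.3 CPM in IVP-LOS (-0.36 ± 0.08, SE). CNR2, the cannabinoid receptor of immune cells, was at 39.6 through 41.7 to 54.6 CPM and at 21.3 through 29.8 to 41.9 CPM (-0.49 ± 0.12, SE), and 8 of 9 IVP-LOS heifers were below every IVP-Normal heifer. ARHGAP27, a GTPase-activating protein, had an estimate of -0.28 ± 0.07 (SE), and LOC112445997, not found in the RefSeq table, one of -1.02 ± 0.24. On D55 all 5 genes of this paragraph had an adjusted p of 0.839 by edgeR's quasi-likelihood test.

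PLOD2 and COL26A1 were read at low levels. PLOD2, a collagen-modifying lysyl hydroxylase, was at 1 to 8 reads, or at or below 0.369 CPM, in all IVP-Normal heifers and between 0.0829 and 3.42 CPM in IVP-LOS, where 8 of 9 were above every IVP-Normal heifer (log2 fold change 2.65 ± 0.62, SE). COL26A1, a collagen chain, had 0 reads in 5 of 6 IVP-Normal heifers and 8 reads in heifer 560. In IVP-LOS it ranged from 0 reads in heifer 663 to 132 reads in heifer 557, or 0 to 5.37 CPM (log2 fold change 4.97 ± 1.19, SE). AI heifers spanned 0.0836 to 2.31 CPM for PLOD2 and 0 to 3.57 CPM for COL26A1. RBM44, an RNA-binding protein, did not pass the filter and was called by DESeq2 alone (log2 fold change -5.84, adjusted p = 0.0289). It rested on IVP-Normal heifers 519 and 628, at 21.1 and 9.25 CPM, while the other 4 were at or below 0.185 CPM and the IVP-LOS heifers at or below 0.244 CPM.

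**Figure D5:**
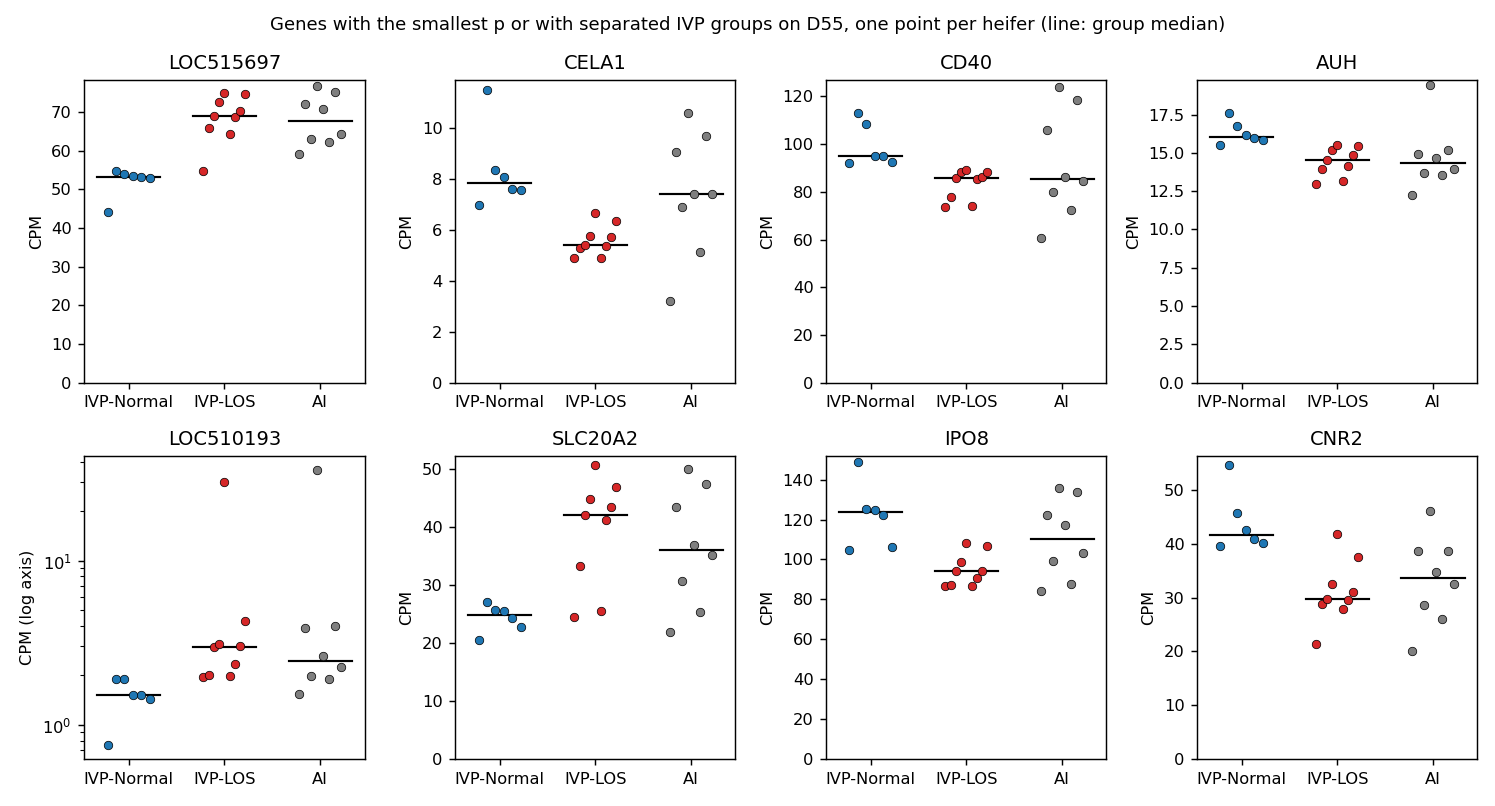
Each panel plots the CPM of 1 gene on D55 with 1 point per heifer and lines at group medians (the LOC510193 axis is logarithmic). Every IVP-LOS heifer is below every IVP-Normal heifer for CELA1 and CD40; the AI heifers overlap both groups for CELA1, CD40, IPO8 and CNR2, and lie above IVP-Normal for LOC515697.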

How the data were processed

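Leukocytes from the buffy coat of maternal blood were sequenced as paired reads. The authors aligned reads with HISAT2 2.1.0 to ARS-UCD1.2, counted them per gene with HTSeq, and deposited raw counts for 30675 NCBI genes (used here) and 27607 Ensembl genes (an alternative). The 5 summary lines were left out of library sizes.

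The 15 D55 libraries were fitted with edgeR 4.0.16 in R 4.3.3: genes kept by filterByExpr (minimum count 10), TMM scaling, no covariate, quasi-likelihood test, Benjamini-Hochberg adjustment, called at 0.05. DESeq2 1.42.0 and edgeR's likelihood ratio test were alternatives. The scripts were tested on simulated data. Distances and list levels used log2(CPM + 1). Intervals are 95%.

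Genes were named by rule: the 10 smallest p, calls by DESeq2, separated groups, the smallest p in each list, and all tested class II genes; BOLA-DRB2 was chosen after its values were seen, as were further list members given as examples. The comparison, members and lists were chosen with earlier results of these data known. Lists carry no test. Some list members are counted but not reported here by name.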

Additional observations from a re-analysis of the deposited data

Results flagged for a closer look

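A heifer was set apart from its group by Dixon's criterion in 17 of 182 groups of values that were checked. The criterion's nominal rate of 1 in 20 cannot be set against this count. Many of the genes were named from these same data, and their CPM values were not log-transformed. In IVP-Normal, heifer 519 was low for LOC515697 (44.2 CPM, nearest 52.9), RSAD2 (6.25 CPM, nearest 11.54), the stress-response gene IER3 (4.645 CPM, nearest 7.69) and the interleukin-1 and interleukin-18 list (mean log2 level 2.59, nearest 3.30). Heifer 628 was high for CELA1 (11.47 CPM, nearest 8.36) and BOLA-DMB (578 CPM, nearest 459.6). Heifer 560 was high for COL26A1 (0.336 CPM, the others at 0) and AHSP, the alpha globin chaperone (1.43 CPM, nearest 0.908).

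In IVP-LOS, heifer 664 was high for BOLA-DRB3 (1896 CPM, nearest 865) and BOLA-DQA5 (136 CPM, nearest 16.2) and low for the interleukin-1 and interleukin-18 list (2.94, nearest 3.47). Heifer 637 was high for LOC510193 (30.1 CPM, nearest 4.27), XBP1, a plasma cell factor (123.7 CPM, nearest 90.6), and F13A1 (1260.3 CPM, nearest 819). Heifer 663 was high for BOLA-DYB (4.69 CPM, nearest 2.48) and the MHC class I list (8.32, nearest 8.16). Heifer 656 was highest for BOLA-DQB (4.05 CPM, nearest 1.82), far under the 4 high IVP-Normal heifers.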

How the results depend on the processing

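The number of genes called was 1 by edgeR's likelihood ratio test, 4 by DESeq2, 1 by both, 1 with no expression filter, 16 with 1 factor of unwanted variation together with upper-quartile scaling and the likelihood ratio test, and 0 to 1 with each heifer left out, the 1 being without heifer 669 or 633. Genes at unadjusted p under 0.05 numbered 1348 with those 3 choices together and 536 (without 519) to 1277 (without 664) with each heifer left out. The main fit had 802, so list counts from fits without a heifer cannot be set against the shares of the main fit. The distance difference ran from -0.60 (without 519) to 1.84 (without 664) and was -0.13 without 557; leaving heifers out was added after seeing the data for distances. The cause was not tested. Of 59 named genes, 4 turned sign, none of them called: BOLA-DQA2 (-0.58 to 0.42 with a heifer left out), BOLA-DMB (-0.083 to 0.049), DSB (-0.22 to 0.13) and RFXANK (-0.16 to 0.0059). Without heifers 604 and 664, BOLA-DMB was at 0.023 and DSB at 0.11. Of 806 list medians, 30 changed sign, in 9 lists. No paired analysis was possible because the D55 groups hold different heifers.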

Other observations

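With 1 factor of unwanted variation, upper-quartile scaling and edgeR's likelihood ratio test together, 16 genes were called, 7 higher and 9 lower in IVP-LOS. They included BOLA-DQB, LOC515697, CNR2, SLC20A2, PLOD2, IL1RAP and TLR3, and the B cell genes CD22, CD79B, SPIB and TNFRSF13C. In AI heifer 517, whose BOLA-DQB was read on D55 and not on D105, RBM44 was at 6.82 CPM on D55 and 0.132 CPM on D105, and BOLA-DQA5 at 68.7 and 0 CPM. Of the 63 genes compared between days, those off on D55 and on on D105 numbered 8 in IVP-LOS heifer 637, 7 in AI heifer 590, 5 in AI heifer 609, 3 each in IVP-Normal heifers 628 and 633, and 0 or 1 in the others.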
